A study of Arabidopsis thaliana with 2 samples.

Results

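AATP1 (AT5G40010) and 9 further loci of its clade encode BCS1-like AAA ATPases, and 8 of these 10 listed loci had a probe among the 21500 probes measured. Probes were taken when the locus in the gene name column of both scanner files was one of the listed loci. The list was headed by AATP1, which was chosen by its high aluminium over control ratio on these arrays, and was drawn up with results of the same comparison known. The ratios of the members are therefore given as a description, with no test of their own. AT3G28540 and AT2G18193 had no probe under this rule, and AT3G50940 had a probe too dim to be tested, so that values for 7 members entered the fit.

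Col-0 seedlings of Arabidopsis thaliana, 10 days old and raised in hydroponic culture, had their roots held for 6 h at pH 5.0 either with 10 µM AlCl3 or without it. Before the exposure both groups had grown at pH 5.5 without aluminium, and the labels name no mutant or transgene. Each of the 2 biological replicates was one Agilent array carrying aluminium RNA and control RNA in different dyes, with the aluminium RNA in Cy3 on replicate 1 and in Cy5 on replicate 2. The replicates also differ in dye orientation, in array layout and in the version of the scanner software, and these cannot be told apart.

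AAA ATPases are ring-forming enzymes that use ATP to unfold, move or take apart other proteins. BCS1 of yeast and its human relative BCS1L sit in the inner mitochondrial membrane and insert the Rieske iron-sulfur protein into respiratory complex III. Plants hold many more genes of this kind. OM66 (AT3G50930, listed by RefSeq as BCS1) encodes an ATPase of the outer mitochondrial membrane whose transcript is known to respond to mitochondrial disturbance and to salicylic acid. AATP1 is also called ATPase-in-Seed-Development. For the other members no role is given by the annotation used here.

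Every tested member had a higher signal in the aluminium RNA on both arrays. Log2 ratios of aluminium over control, averaged over the 2 arrays, lay between 1.49 for OM66 and 3.92 for AATP1, with a median of 2.96 over the 7 tested members against 0.00 over all 19194 genes tested. On replicate 1 the members' median was 3.13 and on replicate 2 it was 2.81. All 7 were at least 2-fold higher on both arrays, as were 1.64% of all genes tested, and 5 were at least 4-fold higher on both, against 0.302% of all genes. In limma's fit across all genes, 7 of the 7 passed an adjusted p of 0.05 as higher, beside a background of 8.25%. Because the comparison chose AATP1, nothing is read from these counts. The fit called 5 of the 7 with offset 0 and without normalization (not OM66 and AT3G28580), and 4 with the scanner software's ratios (AT5G40000 also lost). Of all 19194 genes, 402 were called higher with offset 0, 23 without normalization and 170 with the scanner software's ratios. With the series matrix values limma called 0. All 7 had an unadjusted p under 0.05 there, as had 5073 of the 18659 genes tested with those values.

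**Figure D1:**
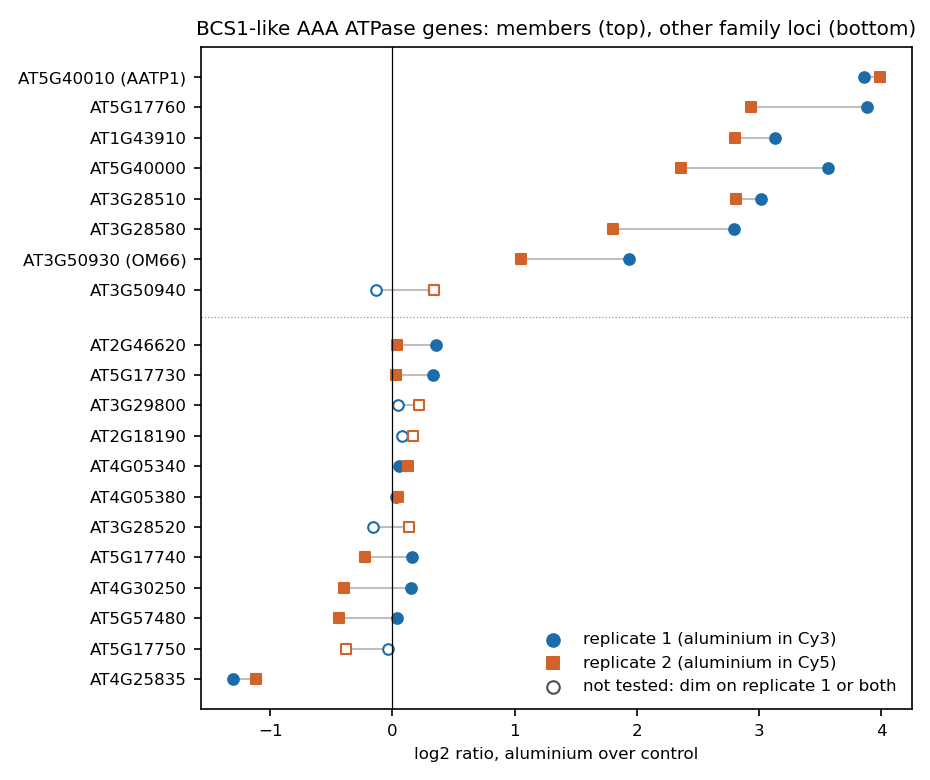
Log2 ratio of aluminium over control (horizontal axis) for every BCS1-like locus with a probe, members above the dotted line and other family loci below it. Circles are replicate 1, squares replicate 2, and open symbols are probes too dim to be tested; 7 members lie right of 1 on both arrays, while the other loci lie near 0 except AT4G25835.

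AATP1 had a normalized intensity of 22603 in the aluminium RNA and 1557 in the control RNA of replicate 1, and of 8270 and 521 on replicate 2. The aluminium RNA was thus brighter in both dyes, by 14.5-fold and 15.9-fold. Its log2 ratio was 3.92 ± 0.092 (SD, n = 2). By mean ratio AATP1 was at rank 5 of the 19194 genes, at rank 6 on replicate 1 and at rank 3 on replicate 2.

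AT5G40000 lies next to AATP1 in the order of protein-coding genes of the RefSeq table. The array's description compares it to human BCS1. Its normalized intensities were 1294 (aluminium) and 109 (control) on replicate 1, and 1036 and 202 on replicate 2. The ratio was 11.8-fold on replicate 1 and 5.13-fold on replicate 2, a log2 mean of 2.96 ± 0.85 (SD, n = 2). Its arrays lay far apart after loess normalization, and its control signal was the lowest of the tested members, at 2.48 times the local background on replicate 1. Its mean log2 ratio ranged from 2.66 without background correction to 3.49 with normexp at offset 0, both after loess, and was 3.75 with the series matrix values.

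AT5G17760 had normalized intensities of 16225 and 1098 in the aluminium and control RNA of replicate 1, and of 7901 and 1031 on replicate 2. The fold difference was 14.8 on replicate 1 and 7.66 on replicate 2, and the log2 mean was 3.41 ± 0.67 (SD, n = 2), at rank 7 of all genes. It stands in a row of related genes: AT5G17750 and AT5G17740 precede it. AT5G17740 had log2 ratios of 0.16 and -0.22 on replicates 1 and 2. AT5G17750 was not well above background in either channel of replicate 1 and had -0.38 on replicate 2. The high ratio of AT5G17760 was not measured at either of these neighbours, both of which gave dim signals.

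AT1G43910 had 7177 in the aluminium RNA and 819 in the control RNA of replicate 1, and 5224 and 747 on replicate 2. AT3G28510 had 2814 and 348 on replicate 1, and 2546 and 363 on replicate 2. For both genes the arrays gave similar ratios, 8.76-fold and 6.99-fold for AT1G43910 (log2 mean 2.97 ± 0.23, SD, n = 2) and 8.08-fold and 7.01-fold for AT3G28510 (log2 mean 2.91 ± 0.14, SD, n = 2). They took ranks 17 and 19 by mean ratio.

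AT3G28580 belongs to the same chromosome 3 group of related loci as AT3G28510, AT3G28520 and AT3G28540. It had 7198 and 1037 in the aluminium and control RNA of replicate 1, and 3964 and 1132 on replicate 2. The fold difference was 6.94 on replicate 1 but 3.50 on replicate 2, a log2 mean of 2.30 ± 0.70 (SD, n = 2). AT3G28520, which adjoins AT3G28510 and is not a member, was not well above background in any channel of either array.

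OM66 had the smallest difference of the tested members. Its normalized intensities were 2840 and 743 in the aluminium and control RNA of replicate 1, and 1383 and 668 on replicate 2. The aluminium RNA was brighter by 3.82-fold and 2.07-fold, a log2 mean of 1.49 ± 0.63 (SD, n = 2), at rank 178. The neighbouring member AT3G50940 was not well above background in either channel of replicate 1, with normalized intensities of 63.0 and 69.1. On replicate 2 it was above background at 109.6 and 86.4, a log2 ratio of 0.34. No fold is given for it.

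**Figure D2:**
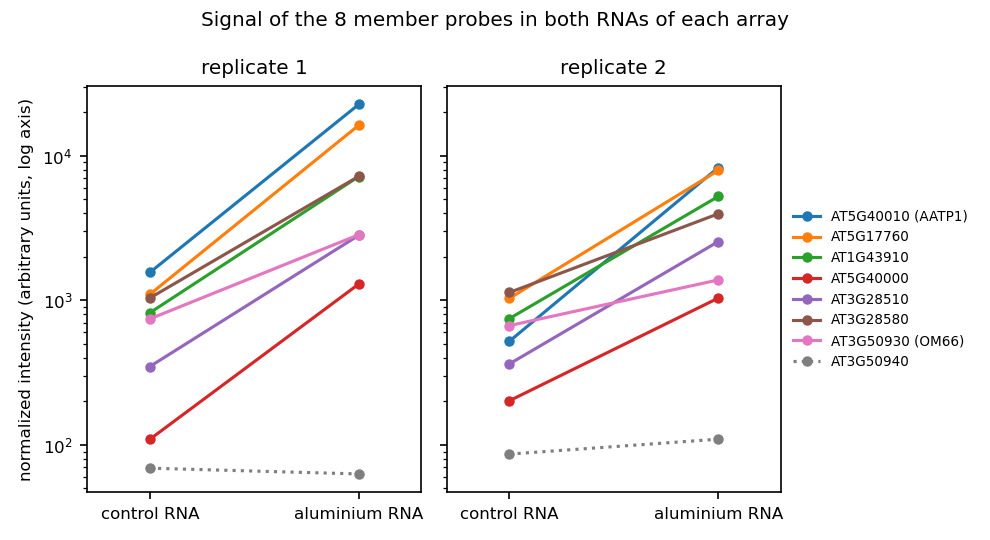
Normalized intensity (log axis, arbitrary units) of the 8 member probes in the control and the aluminium RNA of each array, 1 line per probe. Slopes can be compared between probes, heights cannot; the lines of the 7 tested members climb on both arrays, while the dotted one of AT3G50940, too dim on replicate 1, falls there and climbs from 86.4 to 109.6 on replicate 2.

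The order of the members was not the same on both arrays. AATP1 exceeded AT5G17760 by 1.05 log2 units on replicate 2 and was 0.03 units below it on replicate 1. The order of AT1G43910 and AT5G40000, and that of AT5G40000 and AT3G28510, also turned between arrays, so these genes are not separated beyond their spread. AT5G17760 was above AT1G43910 on both arrays (by 0.75 and 0.13). AT3G28510 was above AT3G28580 on both (by 0.22 and 1.00), and AT3G28580 above OM66 on both (by 0.86 and 0.76). In all, 6 such steps were compared, with no test. Of the tested members, 6 had the larger ratio on replicate 1, AATP1 being the exception. This depended on normalization: 4 of the 7 had the larger ratio on replicate 1 with median centring, and 0 of the 7 without normalization, where AATP1 had the widest gap (1.99) and AT5G40000 the smallest (0.22). Over all genes the ratios spread more on replicate 1, with an SD of 0.48 against 0.41 on replicate 2. Among the 7 tested members they spread less on replicate 1, with an SD of 0.69 against 0.93.

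**Figure D3:**
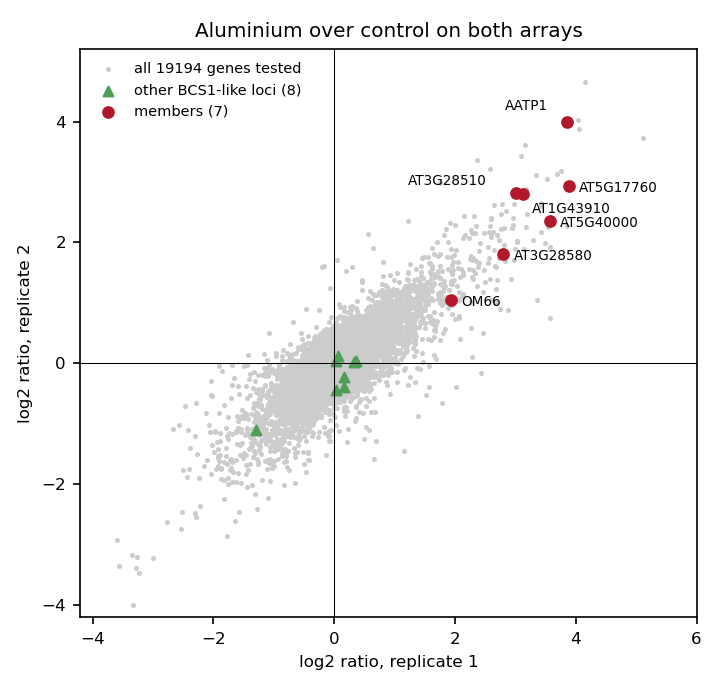
Log2 ratio of aluminium over control on replicate 1 (horizontal) and replicate 2 (vertical) for all 19194 genes tested (grey), the 7 tested members (red) and the 8 other tested BCS1-like loci (green triangles). The members lie in the upper right, from OM66 at 1.93 and 1.05 to AATP1 at 3.86 and 3.99.

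In the aluminium RNA the tested members were between 17.3 and 253 times the local background, none of the probes was saturated, and all 7 were well above background in the 4 channels. The array's probe positions, in a genome build not given in the sources used here, put AATP1 on the minus strand of chromosome 5 at 16037602 to 16037661 and AT5G40000 on the same strand at 16028329 to 16028388, 9.21 kb away. OM66 has its probe on the plus strand of chromosome 3 at 18942452 to 18942511, and AT3G50940 at 18946425 to 18946484, 3.91 kb further on. The loci are related in sequence, and whether each probe separates its gene from close copies, or from the 2 unprobed members, was not tested.

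Other loci of the BCS1-like family give the setting for these values. Of 17 such loci listed in addition to the members, 12 had a probe and 8 were tested, AT4G05340 among them although the array describes it only as a hypothetical protein. The members were listed with results of this comparison known, so nothing is read from the difference between them and these 8 loci. None passed as higher (limma, 0 of 8 at an adjusted p of 0.05, and 0 higher in each alternative setting), beside 8.25% of all genes. Of the 8 loci, 1 passed as lower and 7 did not pass. The lower one was AT4G25835, with log2 ratios of -1.30 on replicate 1 and -1.11 on replicate 2 (mean -1.21 ± 0.13, SD, n = 2, 2.31-fold lower, adjusted p = 0.00507 in limma), beside a background of 6.48% of genes called lower. It was not called without normalization or with the series matrix values (adjusted p = 0.0558). The other tested loci were AT2G46620 (mean 0.20), AT5G17730 (0.18), AT4G05340 (0.09), AT4G05380 (0.04), AT5G17740 (-0.03), AT4G30250 (-0.12) and AT5G57480 (-0.20). Of these, AT5G17740, AT4G30250 and AT5G57480 had opposite signs on the 2 arrays. The median of the 8 was 0.00, and -0.18 without normalization, a setting that moved the median of all genes by the same -0.18. AT2G18190, AT3G29800 and AT5G17750 were too dim on replicate 1, and AT3G28520 on both arrays.

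Beyond this family, 24 tested genes are described on the array as AAA ATPases. Of them 2 rose, 2 fell and 20 did not pass, with a median of -0.05. Both shares are near the background of 8.25% higher and 6.48% lower over all genes. The 4 that passed are named here after their values were seen: NSF, known for membrane fusion, at 0.98 ± 0.14 (n = 2, adjusted p = 0.00784 in limma), AT3G24530 at 0.90 ± 0.25, AT4G36580 at -0.70 ± 0.19 and AT2G18330 at -0.42 ± 0.062. None was 2-fold on both arrays. A list of CDC48 genes and mitochondrial AAA proteases had 3 of 8 higher and 0 lower (median 0.02), beside the same 8.25% and 6.48%. FTSH3 is in this list and also among the 24. The 3 higher ones were CDC48 genes, whose product pulls ubiquitin-tagged proteins out of membranes and complexes. AtCDC48B (AT3G53230) had 1.54 and 1.02 on the 2 arrays (mean 1.28 ± 0.36, adjusted p = 0.00939 in limma), CDC48 (AT3G09840) a mean of 0.54 ± 0.066 and AtCDC48C (AT5G03340) one of 0.49 ± 0.019. The loci that RefSeq calls CDC48B (AT2G03670) and CDC48C (AT3G01610), counted among the 24 above, had means of -0.18 ± 0.036 and -0.14 ± 0.20 and did not pass. These probes too may not separate close copies. The proteases did not pass: FTSH10 had 0.08, FTSH4 -0.05, FTSH11 -0.09, FTSH3 -0.13 and LON1 -0.21. Only AtCDC48B was called with median centring, and 0 of the 8 with offset 0, without normalization, with the scanner ratios or with the series matrix values.

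OM66 is widely used as a marker of mitochondrial stress, so 22 other genes known to respond to it were looked at, of which 19 were tested. They went both ways: 6 rose, 2 fell and 11 did not pass, beside 8.25% of all genes called higher and 6.48% called lower. AOX1A, the alternative oxidase gene used most often as such a marker, was at the median of the list. Its log2 ratios were -0.01 and 0.01 on replicates 1 and 2. UPOX (AT2G21640) had -0.33 and -0.27, a mean of -0.30 ± 0.038 that did not pass (adjusted p = 0.0987 in limma). The external NADH dehydrogenase gene NDB2 had 1.34 and 0.83 (mean 1.09 ± 0.36, adjusted p = 0.0137), whereas its relative NDB4 had -0.92 and -0.94 (mean -0.93 ± 0.018, adjusted p = 0.00700). AT1G57630, described as a TIR-class resistance protein, had the highest mean of the list at 2.53 ± 0.71. The glutathione transferase genes GSTU24 and GSTU25 had 1.85 ± 0.64 and 1.41 ± 0.93, the cytochrome P450 gene CYP81D8 1.26 ± 0.30, and the auxin transporter gene ABCB4 0.84 ± 0.41. The other gene that fell was the glucosyltransferase gene UGT74E2 (mean -1.57 ± 0.15). With offset 0 the fit called 1 of the list higher and 2 lower, and with the scanner ratios 0 and 1. Without normalization or with the series matrix values it called 0 and 0. Over all genes the counts higher and lower were 402 and 226 with offset 0, and 170 and 118 with the scanner ratios. They were 23 and 11 without normalization, and 0 and 0 with the series matrix values.

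Of 11 tested regulators of the response to mitochondrial disturbance, 4 rose and 0 fell (median 0.38), beside 8.25% and 6.48% of all genes. RCD1, which binds and restrains NAC factors, had 0.65 ± 0.20 (adjusted p = 0.0246 in limma), WRKY15 0.67 ± 0.20, and the membrane-bound NAC factor genes NAC078 and NAC053 0.54 ± 0.034 and 0.48 ± 0.099. NAC013 and NAC017, which control OM66 and AOX1A, had 0.20 ± 0.072 and 0.19 ± 0.11 and did not pass. None of the list was called with offset 0, median centring, no normalization, the scanner ratios or the series matrix values.

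The 15 genes for subunits of complex III, the complex that BCS1 serves in yeast, lay within a narrow range. None passed (0 of 15 in limma, and only UCR1-2 with p under 0.05 before adjustment), the means ran from -0.07 to 0.38 and the median was 0.06, or -0.16 without normalization. The Rieske protein genes UCR1-1 (AT5G13430) and UCR1-2 (AT5G13440) had -0.01 ± 0.062 and 0.38 ± 0.37. Among 11 other proteins of the outer mitochondrial membrane, 1 rose and 1 fell (median -0.15), near the 8.25% and 6.48% of all genes. The import receptor gene TOM20-1 had 0.91 and 0.88 (mean 0.89 ± 0.023, adjusted p = 0.00782 in limma), and the porin gene VDAC4 had -0.71 and -0.56 (mean -0.63 ± 0.11, adjusted p = 0.0186). The remaining 9 did not pass, TOM40-1 (-0.39 ± 0.047, adjusted p = 0.0527) being on either side of the threshold under other settings. VDAC4 was not called with offset 0 or median centring, and neither gene without normalization, with the scanner ratios or with the series matrix values.

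Genes of salicylic acid synthesis and signalling, to which OM66 is linked by earlier work, had a median of 1.06. Of 11 tested, 10 were higher and 0 lower, beside 8.25% and 6.48% of all genes. This list was chosen with earlier results of these data known, and its relation to the members was not tested. EDS1, a lipase-like hub of immune signalling, had 1.60 and 1.39 on replicates 1 and 2 (mean 1.50 ± 0.15, adjusted p = 0.00373 in limma). The salicylate receptor genes NPR3 and NPR1 had means of 1.44 ± 0.14 and 0.68 ± 0.11, and NPR4 had 0.32 ± 0.025 and did not pass (adjusted p = 0.0856). CBP60G and SARD1, regulators of the synthesis genes, had 1.06 ± 0.16 and 0.59 ± 0.20. The transporter gene EDS5 and the acyltransferase-like gene EPS1 had 0.99 ± 0.31 and 0.81 ± 0.23. The synthesis genes PBS3 and SID2 had 3.39 ± 0.32 and 2.30 ± 0.21, and PAD4, a partner of EDS1, had 1.80 ± 0.47. The fit called 7 of the 11 with offset 0, 7 with median centring and 3 with the scanner ratios. It called 1 without normalization and 0 with the series matrix values. Over all genes these settings called 402, 889, 170, 23 and 0 higher, in the same order.

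**Figure D4:**
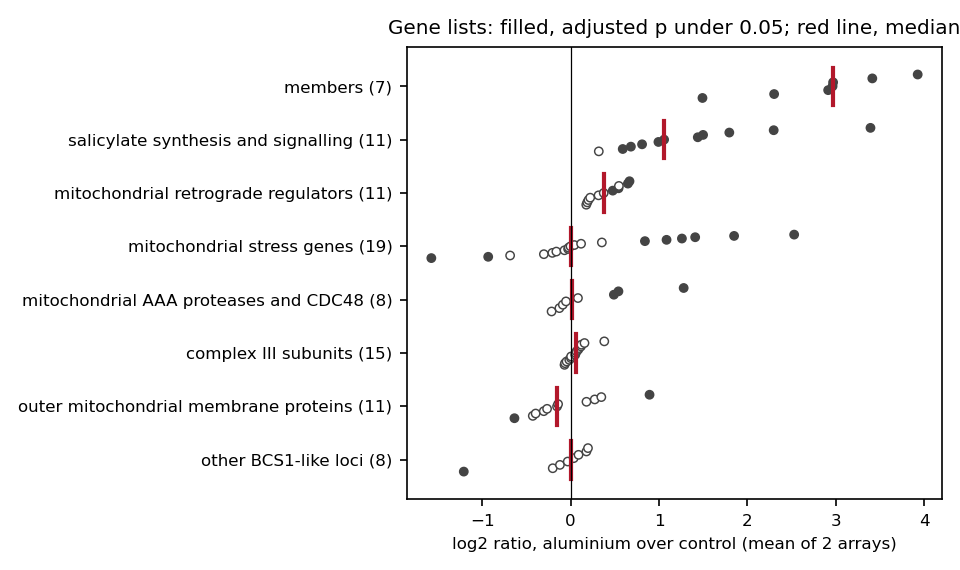
Mean log2 ratio of aluminium over control (horizontal axis) for the tested genes of 8 lists (tissue markers not drawn), with their number in brackets. Each point is a gene, filled where limma's adjusted p was under 0.05, and the red line is the list's median, which was 2.96 for the members, 1.06 for the salicylate list and between -0.15 and 0.38 for the other 6 drawn.

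By distance between their pair of ratios and that of AATP1, over 2 arrays and among genes with a symbol, the nearest were PUB54, a ubiquitin ligase gene (4.16 and 4.66, distance 0.73), PBS3 (3.16 and 3.62, distance 0.79), NHL3, a membrane protein gene (3.68 and 3.13, distance 0.88), and the germin-like gene GLP6 (3.52 and 3.05, distance 1.00). These distances were larger than those found for OM66. The nearest to OM66 were ERD2, a heat shock protein 70 gene (1.97 and 1.05, distance 0.03), the glucosyltransferase genes UGT87A2 (2.00 and 1.07, distance 0.07) and UGT76D1 (1.88 and 1.09, distance 0.07), and the nitrilase gene NIT4 (1.85 and 1.04, distance 0.09). With 2 arrays the measure says only that the ratios were of like size.

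Genes beside the members were also looked at. Of 11 tested protein-coding genes that lie within 2 places of a member and are outside the family, 1 rose, 0 fell and 10 did not pass, near the 8.25% and 6.48% of all genes called higher and lower. On either side of the AATP1 and AT5G40000 pair, AT5G39990 had -0.22 ± 0.030 and AT5G40020 -0.04 ± 0.041. The gene that rose was the immune receptor gene ZAR1, which follows OM66 and AT3G50940. It had 1.48 and 1.25 on replicates 1 and 2 (mean 1.37 ± 0.17, adjusted p = 0.00436 in limma). The 2 genes before OM66 had no probe.

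Marker genes of root and of green tissue were also looked at. All 10 root markers were well above background in the 4 channels, and so were all 10 markers of green tissue. The share of all probes passing that limit ran from 94.4% (control RNA, replicate 1) to 96.4% (aluminium RNA, replicate 2). Detection of the markers therefore cannot tell which tissue was labelled, because nearly any set of genes would pass. The summed normalized intensity of the green markers was 10834 in the aluminium and 11313 in the control RNA of replicate 1, and 4320 and 4460 on replicate 2, with 0 of 10 called by limma, also before adjustment. Root markers differed between the RNAs, with 6 of 10 lower (CASP1 at -1.74 ± 0.081, EXPA7 at -1.73 ± 0.14, IRT1 at -1.61 ± 0.021, WER, COBL9 and SHR). Higher was 1 of 10 (NRT2.1 at 0.84 ± 0.50). Over all genes 6.48% were called lower and 8.25% higher. The root markers had summed intensities of 57142 (aluminium) and 47646 (control) on replicate 1, and 36062 and 39111 on replicate 2. Most of these sums came from the NRT2.1 and PHT1;1 probes (33401 and 17915 in the aluminium RNA of replicate 1). The fit called 5 root markers lower with median centring, 4 with offset 0 and 3 with the scanner ratios. It called 0 without normalization and 0 with the series matrix values. Over all genes these settings called 586, 226, 118, 11 and 0 lower, in the same order. NRT2.1 was not called in any of these settings, with plain background subtraction or with the intensity trend. These arrays measure RNA of many cell types together, in which fewer cells of a type and less RNA per cell cannot be told apart. The part of these differences in the members' ratios was not tested.

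**Figure D5:**
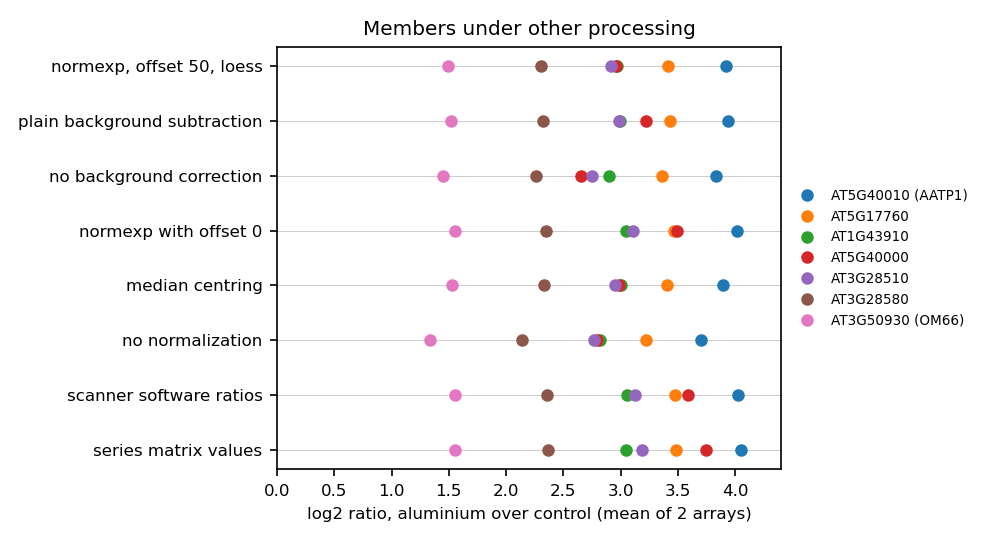
Mean log2 ratio of the 7 tested members (horizontal axis) under 8 ways of processing the same arrays (rows), 1 colour per gene. OM66 stays lowest and AATP1 highest in each row, while AT5G40000 moves from 2.66 to 3.75.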

How the data were processed

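The deposited scanner files hold spot intensity values per channel, not normalized, from Feature Extraction 8.1.1.1 (replicate 1) and 7.1.1 (replicate 2) per the file headers; the submitters' processing notes name 9.5.1.1. Per the file headers they also give a log10 ratio, red over green. In the authors' series matrix are log2 values of 20346 probes (medians -0.0103 and -0.0112); set against the scanner ratios they run as aluminium over control (r = 0.998 and 0.887), and their normalization and centring stay unknown.

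Mean signals were background-corrected (normexp, offset 50) and loess-normalized within each array in limma 3.58.1 (R 4.3.3), with control spots at weight 0 and replicate 1 turned for its dye. Normalized intensity is the channel value after these steps. Left out were 108 probes with outlier marks, 1151 with no channel well above background on at least 1 array and 1047 without a shared locus. The 19194 genes left were tested with lmFit and eBayes against 0, two-sided, with Benjamini-Hochberg adjustment (1 residual and 4.06 prior degrees of freedom). An exact sign-flip test of 2 arrays cannot go under p = 0.5. The procedure was run on simulated data with independent normal noise, whose variances were drawn from the fitted prior. Such data meet the assumptions of the fit by design, so they cannot check the calls on these arrays. Symbols come from RefSeq TAIR10.1, which held 19118 of the loci, or are common names where RefSeq gives none or another for a listed locus.

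Members and lists were chosen with earlier results of these data known; the lists were written from general knowledge of the genes. The text names every member and family locus with a probe, in other lists the genes past an adjusted p of 0.05 and up to 4 with the smallest p, and the 4 genes nearest to AATP1 and to OM66 by Euclidean distance over both arrays. Exceptions are named as such or are background markers (AOX1A, UPOX, NAC013, NAC017, the proteases). Alternatives covered background, normalization, the dim-probe filter, the variance prior and single replicates.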

Additional observations from a re-analysis of the deposited data

How the results depend on the processing

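All 7 tested members kept a ratio above 0 on both arrays in the alternatives run, and their median of 2.96 ran from 2.75 to 3.18, or from 2.81 to 3.13 with either replicate left out. AATP1 ran from 3.70 to 4.05 and OM66 from 1.34 to 1.56. The calls depended on the processing. The count of genes called, 2826 (1583 higher and 1243 lower), was 628 with offset 0, 1475 with median centring, 34 (23 higher and 11 lower) without normalization, 288 with the scanner ratios and 0 with the series matrix values (5073 at an unadjusted p under 0.05, smallest adjusted p = 0.0535). Called members numbered 4 with the scanner ratios and 0 with the series matrix values, and OM66 was past the threshold in neither. Of the other listed genes 35 were called, against 16, 23, 1, 8 and 0 under those settings in the same order. With median centring and without normalization limma fitted 1 common spread for all genes. The cause of these shifts was not tested. Each replicate alone gives ratios and no test, so that no counts were made. Without normalization the median of all genes moved to -0.18, and those of the complex III, AAA protease and CDC48, and green marker lists turned to -0.16, -0.15 and -0.24. The fit is already paired, because it rests on the ratio of both RNAs within each array, which leaves no further pairs to block. With 2 arrays, spread is borrowed from all genes, and the low signals of AT3G50940, and of AT5G40000 in the control RNA, limit what can be measured.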
